A study of Mus musculus with 4 samples.

Results

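Laminin, nidogen and integrin genes were followed in the embryonic mouse retina with and without a transgene that deletes Lhx2, which encodes a LIM-homeodomain protein that eye formation requires. Genes were taken by symbol: every laminin alpha, beta or gamma chain, both nidogens, and every integrin alpha or beta subunit that had a transcript cluster (the array's unit of measurement) annotated with exactly 1 symbol. This gave 36 of the 20252 genes measured, made up of 10 laminin chains, 2 nidogens and 24 integrin subunits. Itga1 and Itgax were not analysed here. Neuroretina, the neural layer of the eye, was dissected from CD-1 embryos at embryonic day 13.5 and hybridised to 4 arrays. The 2 control arrays came from Lhx2 lox/lox embryos, in which both alleles can be cut by Cre recombinase. The other 2 arrays came from embryos labelled Chx10-Cre;Lhx2 lox/lox, which carry the same alleles and Cre under the control of Chx10, a gene of retinal progenitors, and are called labelled knockout here. Only these embryos carry the transgene, so an effect of Cre cannot be told apart from an effect of Lhx2 deletion. Cells in which Cre was never active, and whose precursors never had it active, keep their alleles.

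Laminins are cross-shaped trimers of an alpha, a beta and a gamma chain, and they assemble into the sheet on which every basement membrane is built. Nidogens link that sheet to the collagen IV network, and integrins, each a pair of an alpha and a beta subunit, hold cells to it from within the plasma membrane. In the embryonic eye, basement membranes line the inner surface of the retina, where progenitor endfeet attach and ganglion cell axons grow, and also surround the pigment epithelium, the lens and blood vessels. Their proteins can be made by retinal cells or by the mesenchyme and vessels next to the retina.

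Promoter sequences are shown for 4 members. Lama2, Lamb1 and Nid1 had higher signals in labelled knockout arrays, and Itgb8 had lower ones but did not pass the test used below. Promoters of 22 of the 36 genes were in the RefSeq table used (GRCm38.p6), and the 250 bases before the annotated start are printed in lower case, 5′ to 3′. Capitals in them mark the GC box GGGCGG on either strand, a site of SP family factors.
Lama2 (chr10:27616943-27617192, minus strand): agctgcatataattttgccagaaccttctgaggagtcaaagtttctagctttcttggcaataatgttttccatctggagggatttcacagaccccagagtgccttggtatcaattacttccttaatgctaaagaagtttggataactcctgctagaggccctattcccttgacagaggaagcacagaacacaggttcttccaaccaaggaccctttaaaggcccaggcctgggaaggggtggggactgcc
Lamb1 (chr12:31265043-31265292, plus strand): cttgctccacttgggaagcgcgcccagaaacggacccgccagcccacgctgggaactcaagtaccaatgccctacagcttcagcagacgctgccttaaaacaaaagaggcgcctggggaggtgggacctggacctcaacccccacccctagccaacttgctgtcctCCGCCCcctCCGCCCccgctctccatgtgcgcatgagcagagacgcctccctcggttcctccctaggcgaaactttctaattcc
Nid1 (chr13:13437352-13437601, plus strand): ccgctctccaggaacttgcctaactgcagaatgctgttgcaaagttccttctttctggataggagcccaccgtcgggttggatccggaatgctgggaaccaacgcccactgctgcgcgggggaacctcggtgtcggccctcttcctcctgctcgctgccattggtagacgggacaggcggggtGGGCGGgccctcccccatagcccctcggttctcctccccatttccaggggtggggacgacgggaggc
Itgb8 (chr12:119238277-119238526, minus strand): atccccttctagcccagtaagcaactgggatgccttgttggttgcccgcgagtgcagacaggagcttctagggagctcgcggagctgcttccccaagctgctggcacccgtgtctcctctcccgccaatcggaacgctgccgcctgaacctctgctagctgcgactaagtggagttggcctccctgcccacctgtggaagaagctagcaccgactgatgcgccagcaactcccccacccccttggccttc
The Lamb1 window held 2 GC boxes and the Nid1 window 1, and none was found in those of Lama2 and Itgb8. The window of Lama2 also stood apart in base composition, with 0 CpG dinucleotides and 47.2% G or C, against 14 CpG and 62.0% in Lamb1, 16 CpG and 64.4% in Nid1, and 12 CpG and 62.4% in Itgb8. Over all 32851 promoters in the table, 32.7% held a GC box in the same window, against 10 of the 25 promoters listed for the 22 members. The core TAATTA, bound by many LIM-homeodomain factors, was in 0 of these 25 promoters and in 4.84% of all promoters. The TATA box TATAAA was in 0 of the 25 and in 12.4% of all. These are counts of letters in short windows and say nothing of binding by Lhx2.

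Values below are given for replicate 1 and then replicate 2 of each group, and arrays that share a replicate number are called pair 1 and pair 2, although the labels do not say what the number marks. Lhx2 itself read 6.36 and 6.49 (log2) in control and 6.38 and 6.50 in labelled knockout arrays, a difference of 0.02 (SE 0.35). The sources used here do not say which exons its cluster covers, so this value does not check the labels, and all directions below rest on them. Of 11 retinal progenitor markers measured, 11 lay above the 75th percentile of all clusters on at least 1 array and 4 fell in labelled knockout arrays, with a list median of -1.11. The array medians over all clusters ran from 2.85 to 3.53, and both replicate 2 arrays lay above both replicate 1 arrays. The labelled knockout median over all clusters lay 0.13 below that of control in pair 1 and 0.07 below in pair 2, whereas the median over the genes tested lay 0.11 and 0.05 above it, so differences are also given for each pair. Nothing in the labels says whether replicates were separate animals or pools, and p-values measure a spread between these arrays only. On deposited values limma set that spread from genes of like signal, so SEs, intervals and p-values do not carry a gene's own spread.

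In labelled knockout arrays 5 of the 36 genes rose and 0 fell, in limma's test across all genes on the deposited log2 signals at an adjusted p of 0.05. The genes that rose were both nidogens (Nid1 and Nid2), the laminin alpha chains Lama2 and Lama4, and the beta chain Lamb1. These 5 are 13.9% of the members, beside 1.27% of all genes called higher and 0.780% called lower. No integrin passed. At an unadjusted p of 0.05, 8 members were higher and 1, Itgb8, was lower, together 25% of the members beside 6.28% of all genes. The median log2 difference, labelled knockout minus control, was 0.09 over the 36 members and -0.06 over all genes. The calls depended on the setting. After quantile normalization, or after centring each array on its median over all clusters or over genes, limma called 0 of the 36. On deposited values it also called 0 with the replicate number as a term or with genes under the median level left out. Changes to the variance prior or the cluster rule left 4 or 5 members called. The 5 genes were above 0 in each of those fits. Leaving genes out or adding the replicate number does not change a difference, and centring shifts all genes alike. In those fits the kept sign adds no support.

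**Figure D1:**
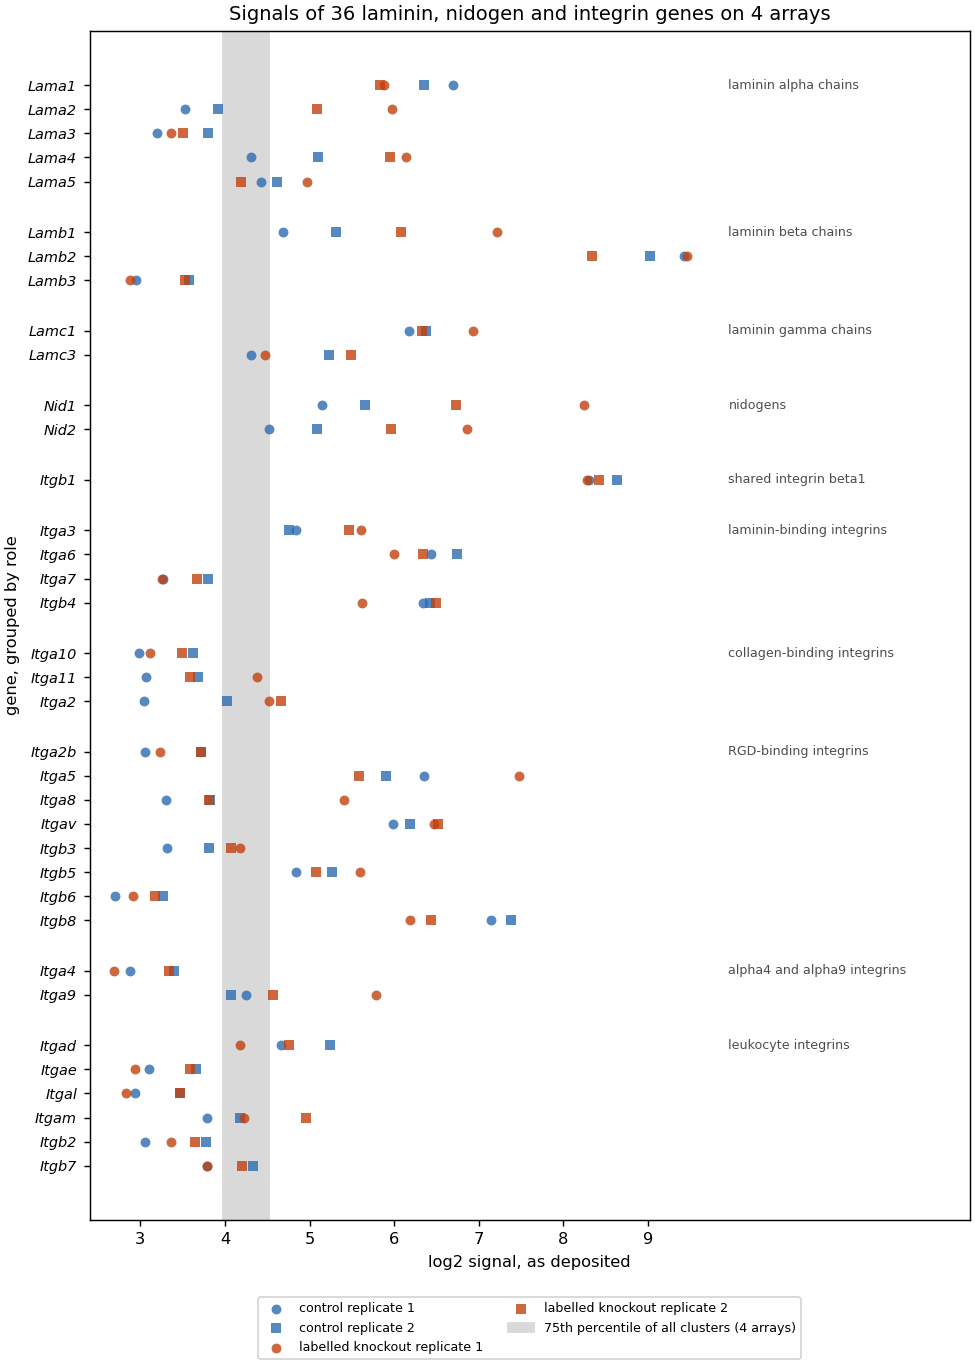
Log2 signal as deposited (horizontal axis) of each of the 36 genes (vertical axis, grouped by role) on the 4 arrays, blue for control and orange for labelled knockout, circles for replicate 1 and squares for replicate 2. The grey band spans the 75th percentile of all clusters on the 4 arrays, and signals of different genes are not comparable. Both orange points lie right of both blue points for 11 genes, Nid1, Nid2, Lamb1, Lama2 and Lama4 among them, and left of them for Itgb8, Lama1 and Itga6.

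Both nidogens rose. Nid1, which joins the laminin gamma chain to collagen IV, had log2 signals of 5.15 and 5.65 in control and 8.24 and 6.72 in labelled knockout arrays. Every labelled knockout signal lay above every control signal, and the higher of them was on the replicate 1 array. The mean went from 5.40 ± 0.36 (SD, n = 2) to 7.48 ± 1.07, 4.22-fold higher, with a log2 difference of 2.08 (SE 0.35, 95% interval 1.38 to 2.77, limma adjusted p = 1.04e-06). Its paralogue Nid2, which has the same bridging role, read 4.52 and 5.09 in control and 6.86 and 5.96 in labelled knockout arrays. Its labelled knockout arrays again lay above both controls, by 1.60 on the log2 scale or 3.04-fold (SE 0.37, limma adjusted p = 0.00190). In pair 1 the differences were 3.09 for Nid1 and 2.34 for Nid2, and in pair 2 they were 1.07 and 0.87.

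The 5 laminin alpha chains, which carry the cell-binding domains of the trimer, did not move together. Lama2, the chain of laminins in muscle and many mesenchymal basement membranes, had signals of 3.52 and 3.92 in control and 5.97 and 5.08 in labelled knockout arrays. The groups did not overlap, and both controls were under their arrays' 75th percentiles of all clusters (4.06 and 4.52), so the fold is taken against a signal not told from background. The log2 difference was 1.81 (SE 0.43, limma adjusted p = 0.00299), or 2.45 in pair 1 and 1.16 in pair 2. Lama4, the chain of endothelial and other mesenchymal basement membranes, had signals of 4.30 and 5.10 in control and 6.14 and 5.95 in labelled knockout arrays. Its labelled knockout arrays were close together and above both controls, with a log2 difference of 1.34 (SE 0.39, limma adjusted p = 0.0290), or 1.83 and 0.85 by pair. Lama1, the alpha chain of early embryonic and retinal inner surface basement membranes, lay on the other side of 0. It read 6.70 and 6.35 in control and 5.88 and 5.83 in labelled knockout arrays. Both labelled knockout signals were below both controls, with a log2 difference of -0.67 (SE 0.36, 95% interval -1.37 to 0.03, limma adjusted p = 0.887), which did not pass. Lama3, of epithelial laminins, was below the 75th percentile on all 4 arrays. Lama5, a chain of many epithelial and vascular basement membranes, differed by 0.07, with opposite signs in pair 1 (0.55) and pair 2 (-0.42).

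Of the 3 beta chains, Lamb1 rose. Lamb1 is the usual beta chain of embryonic laminins and pairs with Lama1, Lama2 and Lama4 chains alike. Its signals were 4.69 and 5.31 in control and 7.22 and 6.08 in labelled knockout arrays, without overlap. The mean went from 5.0 ± 0.43 (SD, n = 2) to 6.65 ± 0.80, 3.14-fold higher, with a log2 difference of 1.65 (SE 0.37, limma adjusted p = 0.000796), or 2.52 and 0.77 by pair. Lamb2, the beta chain of laminins in mature retina and at synapses, read 9.42 and 9.03 in control and 9.46 and 8.33 in labelled knockout arrays. These groups overlapped, with a log2 difference of -0.33 (SE 0.44, limma adjusted p = 1.00). Lamb3, an epithelial chain, was below the 75th percentile on all 4 arrays.

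The gamma chains did not pass. Lamc1, the gamma chain shared by most laminins and the one that nidogens bind, read 6.17 and 6.38 in control and 6.93 and 6.33 in labelled knockout arrays. Only the replicate 1 labelled knockout array stood above the controls, and the log2 difference was 0.35 (SE 0.35, 95% interval -0.34 to 1.05, limma adjusted p = 1.00). Lamc1 differed by 0.76 in pair 1 and by -0.05 in pair 2. Lamc3, a gamma chain found in retina and brain, differed by 0.21 on the cluster used, and by 0.07 to 0.40 on its 3 other clusters.

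The rises of laminins and nidogens stood beside rises of mesenchymal, pigment epithelial and forebrain markers. Of 16 periocular mesenchyme markers measured, 10 rose and 0 fell, Col1a1, Postn, Col3a1 and Col1a2 with the smallest p. Their mean log2 signal was 3.99 and 4.42 in control and 6.77 and 5.13 in labelled knockout arrays. None of the 16 was under the 75th percentile on all 4 arrays, although 9 were on both control arrays. Among 12 pigment epithelium markers 6 rose, led by Dct, and the mean signal went from 3.67 and 4.72 to 5.47 and 5.07. Of 12 endothelial markers 1 rose (Tek), with mean signals of 4.07 and 4.70 in control and 5.16 and 5.01 in labelled knockout arrays. Their differences lay above 0 for 10 and below 0 for 2, with medians of 1.25 in pair 1 and 0.43 in pair 2. Over all genes 7768 of 20252 lay above 0. Against that direction, Kdr, named after its values were seen as the brightest marker of the list, lay below both controls (8.94 and 9.02 against 8.23 and 8.13, difference -0.80, limma adjusted p = 0.794). Of 8 pericyte and smooth muscle markers 0 passed (limma, smallest adjusted p = 0.0524, Anpep), with 3 higher at an unadjusted p of 0.05. Muscle markers, of which 1 of 10 rose (Actc1), had a median of 0.99 in pair 1 and -0.03 in pair 2. Of 12 lens and surface ectoderm markers 1 rose (Krt5), and of 7 megakaryocyte and erythroid markers 0 passed (limma, smallest adjusted p = 0.0639, Alas2, the only one at an unadjusted p of 0.05). Forebrain neuroepithelium markers, with 7 of 11 higher, led by Sim1, Lhx5, Rspo3 and Otp, and 1 lower, differed more in pair 2 (median 4.17) than in pair 1 (2.72). Of 12 ganglion cell markers 1 fell (Isl1), with a list median of -0.01. With arrays centred on the median of genes, the mesenchyme, pigment epithelium, endothelial, muscle and lens markers that rose no longer passed. Col1a1, for example, then had a limma adjusted p of 0.191 and Dct of 0.280. Sim1, Lhx5, Rspo3 and Otp still passed, as did the progenitor markers Six6, Fgf15 and Rax, but Ccnd1 and Isl1 did not. Nid1, Nid2, Lamb1, Lama2 and Lama4 were at their highest in labelled knockout replicate 1. So were the mean signals of the mesenchyme, pigment epithelium, endothelial, pericyte, muscle and lens lists, so this array does not tell these lists apart. The part of these other cells in the rises was not tested, and in dissected tissue more cells of a type and more RNA per cell cannot be told apart.

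Neither Itgb1 nor the 4 other subunits of laminin-binding integrins passed (limma, smallest adjusted p = 0.908), and 0 of them had an unadjusted p under 0.05. Itgb1, the beta subunit shared by most laminin- and collagen-binding integrins, had signals of 8.30 and 8.63 in control and 8.28 and 8.42 in labelled knockout arrays. The groups overlapped, and the log2 difference was -0.11 (SE 0.40, 95% interval -0.89 to 0.66). Its partner Itga6, which makes laminin receptors of progenitor endfeet and epithelia, read 6.43 and 6.74 in control and 6.0 and 6.34 in labelled knockout arrays. The difference of -0.42 (SE 0.35, limma adjusted p = 1.00) was alike in size in pair 1 (-0.44) and pair 2 (-0.40). A dim second cluster of Itga6, below the 75th percentile on all 4 arrays, differed by 0.44 in the opposite direction. Itga3, the other widespread laminin-binding alpha subunit, lay above control on both labelled knockout arrays, with signals of 4.83 and 4.75 in control and 5.60 and 5.46 in labelled knockout arrays. Its log2 difference was 0.74 (SE 0.40, limma adjusted p = 0.908), or 0.77 and 0.71 by pair, and it did not pass. Itgb4, the Itga6 partner at hemidesmosomes, differed by -0.72 in pair 1 and 0.08 in pair 2, and Itga7, a muscle laminin receptor, was below the 75th percentile throughout.

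Of the 8 subunits of integrins that bind the RGD peptide of fibronectin, vitronectin and latent TGF-beta, 0 passed (limma, smallest adjusted p = 0.205), with 1 higher (Itga8) and 1 lower at an unadjusted p of 0.05. That smallest value belonged to Itgb8, which pairs with Itgav and releases active TGF-beta from its latent complex, and which is known in neuroepithelium and radial glia. Itgb8 read 7.14 and 7.38 in control and 6.18 and 6.43 in labelled knockout arrays. The groups did not overlap, with a mean of 7.26 ± 0.17 (SD, n = 2) in control against 6.31 ± 0.18, 1.94-fold lower, in labelled knockout arrays. The log2 difference was -0.95 (SE 0.35, 95% interval -1.64 to -0.26), with -0.96 in pair 1 and -0.94 in pair 2. This was the smallest gap between pairs among members that differed by at least 1.5-fold in either pair. Beside it, the retinal progenitor markers had medians of -1.17 and -1.0 in the same pairs, and the part of progenitor cell number in the Itgb8 difference was not tested. Itgav, its alpha partner, read 5.98 and 6.19 in control and 6.47 and 6.51 in labelled knockout arrays, a log2 difference of 0.41 (SE 0.36, limma adjusted p = 1.00). Itga5, the fibronectin receptor alpha subunit, and Itga8, a receptor for nephronectin in mesenchyme, were high on 1 array only. Itga5 read 6.35 and 5.90 in control and 7.48 and 5.59 in labelled knockout arrays. Itga8 read 3.30 and 3.82 in control and 5.41 and 3.81 in labelled knockout arrays. Itgb5, a vitronectin receptor subunit, differed by 0.76 and -0.18 by pair, and Itgb3, its counterpart in platelets and vessels, by 0.87 and 0.26. Itga2b, the platelet subunit, and Itgb6, an epithelial one, were below the 75th percentile on all 4 arrays.

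Collagen-binding, alpha4 and alpha9 subunits did not pass either, although Itga2 and Itga9 had an unadjusted p under 0.05. Itga2, an epithelial and platelet collagen receptor, had signals of 3.04 and 4.02 in control and 4.52 and 4.67 in labelled knockout arrays, a log2 difference of 1.06 (SE 0.48, limma adjusted p = 0.526). Its labelled knockout signals were above both controls, each of which was below the 75th percentile of its array. Itga11, the fibroblast collagen receptor, stood out on the replicate 1 labelled knockout array alone, with signals of 3.07 and 3.69 in control and 4.38 and 3.59 in labelled knockout arrays. Itga9, a receptor for tenascin and other ligands, differed by 1.54 and 0.50 by pair (log2 difference 1.02, SE 0.43, limma adjusted p = 0.408). Itga10, a cartilage collagen receptor, and Itga4, a receptor for fibronectin and VCAM-1, were below the 75th percentile on all 4 arrays.

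There were 6 leukocyte subunits. Itgae, Itgal, Itgb2 and Itgb7, found on T cells and other leukocytes, were below the 75th percentile on all 4 arrays. Itgam, the alpha subunit of macrophages and microglia, read 3.78 and 4.17 in control, both not told from background, and 4.23 and 4.96 in labelled knockout arrays. Its difference of 0.61 (SE 0.46, limma adjusted p = 1.00) was 0.45 in pair 1 and 0.78 in pair 2. Macrophage and microglia markers had medians of 0.38 and 0.51 by pair, with 0 of 12 passing in limma (smallest adjusted p = 0.298, Csf1r) and 3 higher at an unadjusted p of 0.05. The part of these cells in the Itgam difference was not tested. Itgad, another macrophage subunit, differed by -0.49, while its 3 other clusters, all below the 75th percentile, differed by -0.11 to 0.17. In all, 11 of the 36 members were below the 75th percentile on all 4 arrays, with differences from -0.12 to 0.10. Both controls were under it for 17 members, which besides those 11 were Lama2, Itga2, Itga8, Itga11, Itgb3 and Itgam, so the differences of these 6 are taken against signals not told from background.

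The comparison by pair separated members that differed alike in both pairs from members that differed in 1 pair. In 24 of 36 members the sign was the same in pair 1 and pair 2, but this share was not counted over all genes. At least 1.5-fold higher signals in both pairs were found for 7 members (Nid1, Nid2, Lamb1, Lama2, Lama4, Itga2 and Itga3), or 19.4%, beside 2.63% of all genes. At least 1.5-fold lower signals in both pairs were found for 1 member, Itgb8, or 2.78%, beside 3.35% of all genes, so the members' share of falls was near that of all genes. Both labelled knockout signals lay above both controls for 11 members (30.6%) beside 9.63% of all genes, and below both for 3 members (8.33%) beside 10.2%. Across the 36 members, which are not replicates, Pearson's r between the differences of pair 1 and pair 2 was 0.765 and Spearman's rho 0.641, against 0.575 and 0.457 over all genes, all points sharing the same 4 arrays. The pair 1 difference was the larger in 26 of 36 members, beside 9406 of all 20252 genes. The member median was 0.26 in pair 1 and -0.05 in pair 2. For laminins and nidogens these medians were 0.65 and 0.10, and for integrins 0.19 and -0.08.

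**Figure D2:**
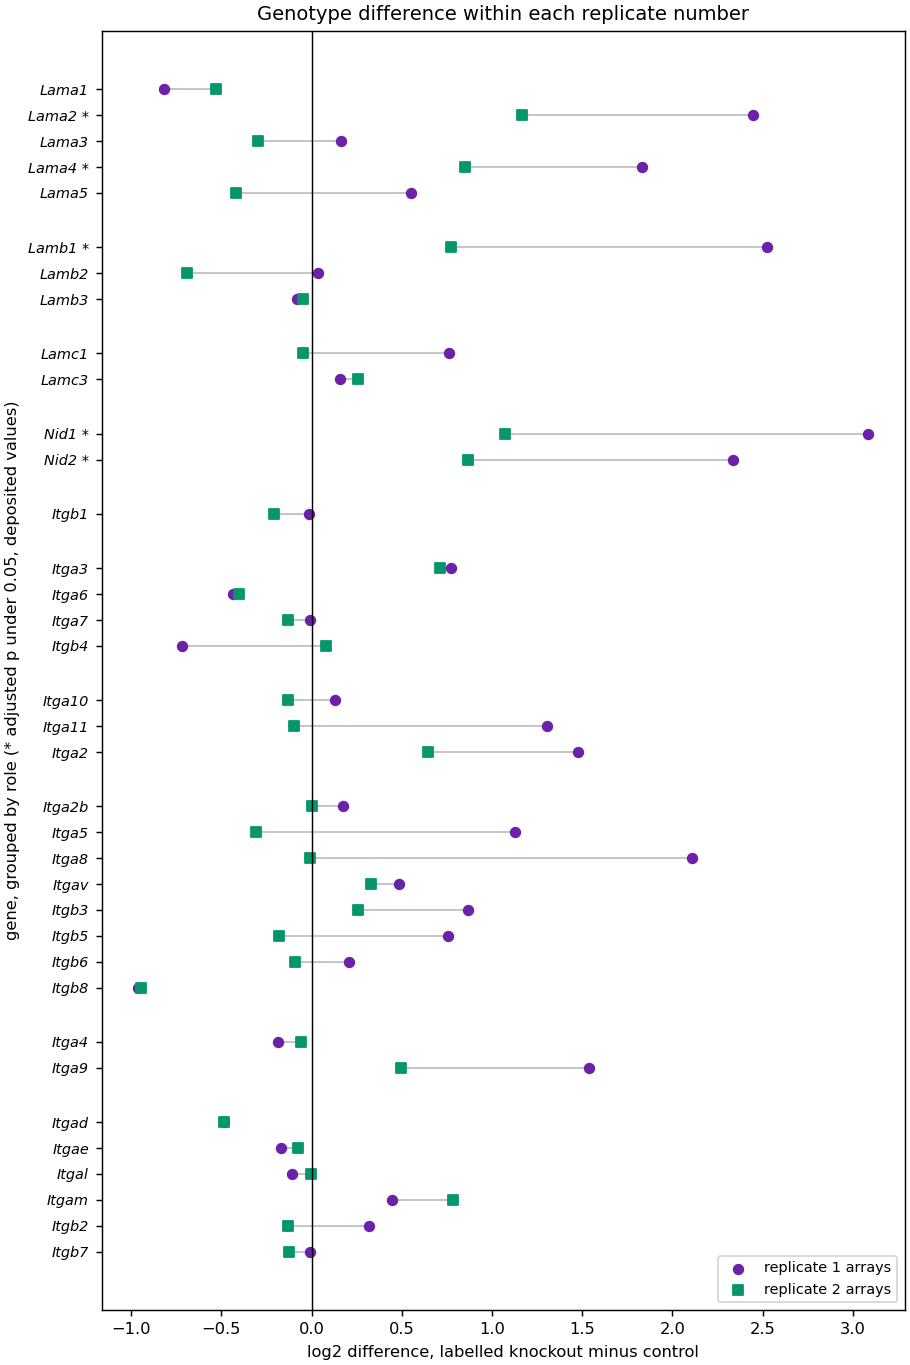
Log2 difference, labelled knockout minus control (horizontal axis), in pair 1 (replicate 1 arrays, purple circles) and pair 2 (replicate 2 arrays, green squares) for each of the 36 genes (vertical axis); an asterisk marks an adjusted p under 0.05 on deposited values, and grey lines join the points of a gene. Nid1 runs from 1.07 to 3.09 and Itga8 from -0.01 to 2.11, while the points of Itgb8 (-0.96 and -0.94) and Itga3 (0.77 and 0.71) nearly coincide.

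The rises changed little in size with the scaling, and their errors changed more. On deposited values limma set the SE of the 5 genes from genes of like signal, between 0.35 and 0.43. With each array centred on the median of its genes, the SEs were 0.27 to 0.56, differences ran from 1.26 (Lama4) to 2.00 (Nid1), unadjusted p from 0.00266 to 0.0130 and adjusted p from 0.118 to 0.244. After quantile normalization adjusted p ran from 0.216 to 0.375. Itgb8 had the smallest adjusted p of any member after gene centring (0.109, difference -1.03) and after quantile normalization (0.199, difference -0.93). The labelled knockout replicate 1 array carried much of the size: without it, the 5 differences were 1.08 (Lamb1) to 1.36 (Lama2), with 1.32 for Nid1. Without labelled knockout replicate 2, Nid1 differed by 2.83. Without control replicate 1, differences ran from 0.94 (Lama4) to 1.83 (Nid1), and without control replicate 2 from 1.74 (Lama4) to 2.33 (Nid1). The arrays were not rescaled in these fits, so the differences carry a shift of all genes. In the same order the median over all genes was 0.20, -0.33, -0.30 and 0.19, beside -0.06 with all 4 arrays.

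**Figure D3:**
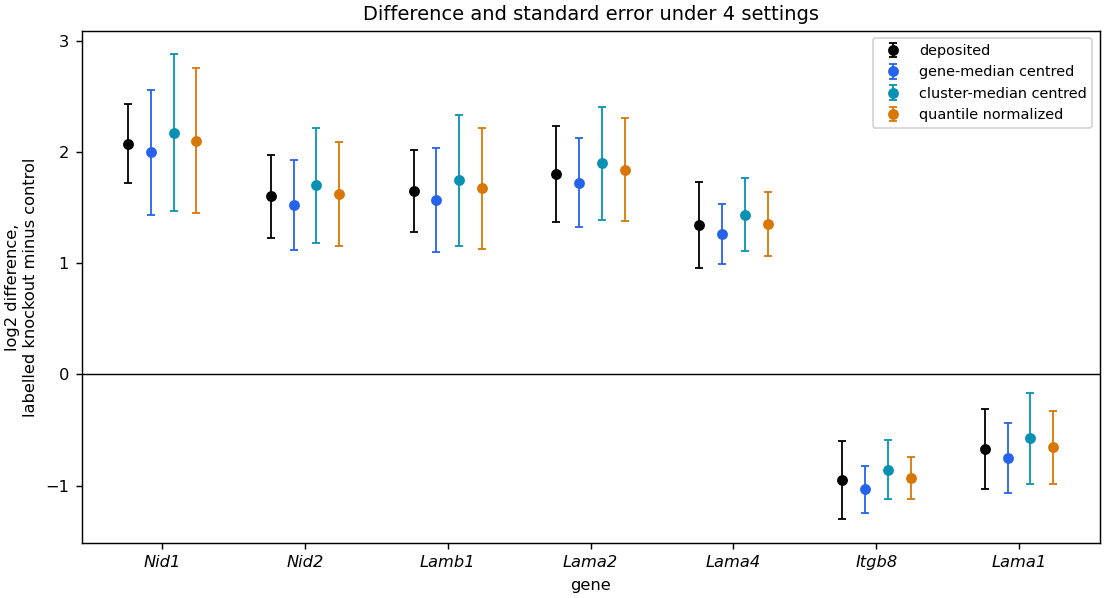
Log2 difference, labelled knockout minus control (vertical axis), with bars of 1 SE, for the 5 genes that rose and for Itgb8 and Lama1, under 4 settings of the limma fit (deposited values, centring on the median of genes, centring on the median of clusters, quantile normalization). All points of Nid1, Nid2, Lamb1, Lama2 and Lama4 lie above 1 and those of Itgb8 and Lama1 below 0; for Nid1 the SE goes from 0.35 on deposited values to 0.56 after centring on genes, 0.66 after quantile normalization and 0.71 after centring on clusters.

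Partner genes of the same pathway moved in part. Of 26 other basement membrane components measured, 4 rose and 0 fell, and the median was 0.08 (-0.06 over all genes). They were Hmcn1 (2.27), a giant extracellular immunoglobulin protein, Egfl6 (1.65), Npnt (1.51), the nephronectin bound by Itga8, and Fras1 (1.27), an epithelial basement membrane protein. Hmcn1 differed by 3.70 and 0.84 by pair, and Egfl6 by 2.89 and 0.41, and both control signals of each were under the 75th percentile, not told from background. Fras1 read 4.87 and 5.02 in control and 6.30 and 6.13 in labelled knockout arrays, so it was about as high on both labelled knockout arrays. The collagen IV genes Col4a1 and Col4a2, named after their values were seen because nidogens bind their product, differed by 0.09 and -0.05. Among 28 non-laminin integrin ligands 4 rose and 0 fell, with a median of 0.27. Postn (3.11), periostin of mesenchyme, and Thbs1 (3.0), thrombospondin, differed most, followed by Tgfbi (1.59) and Npnt, with both control signals of Postn and Tgfbi under the 75th percentile. Thbs1 was high on both labelled knockout arrays, with 8.10 and 7.69 against 4.62 and 5.16 in control, and Postn differed by 4.64 and 1.58 by pair. With arrays centred on the median of genes, Thbs1 still passed (limma adjusted p = 0.0210). Hmcn1, Egfl6, Npnt, Fras1, Postn and Tgfbi did not, Fras1 having the smallest limma adjusted p among them (0.123).

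In the adhesion complex and dystroglycan lists 0 genes passed. Of 29 adhesion complex genes, which link integrin tails to actin, the smallest p belonged to the tensin genes Tns1 (0.67, limma adjusted p = 1.00) and Tns2 (0.50, limma adjusted p = 1.00), and the median was 0.09. Of 15 genes listed around dystroglycan, the other main laminin receptor (the enzymes that add its laminin-binding sugar, dystrophin, utrophin and sarcoglycans, with Bcam and Cd151), the smallest p belonged to Bcam (-0.41), a laminin receptor of the immunoglobulin family, and Sgcd (0.49), a sarcoglycan under the 75th percentile on all 4 arrays, with a list median of 0.00. In neither list did a gene have an unadjusted limma p under 0.05; the smallest were 0.145 (Tns1) and 0.298 (Bcam).

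**Figure D4:**
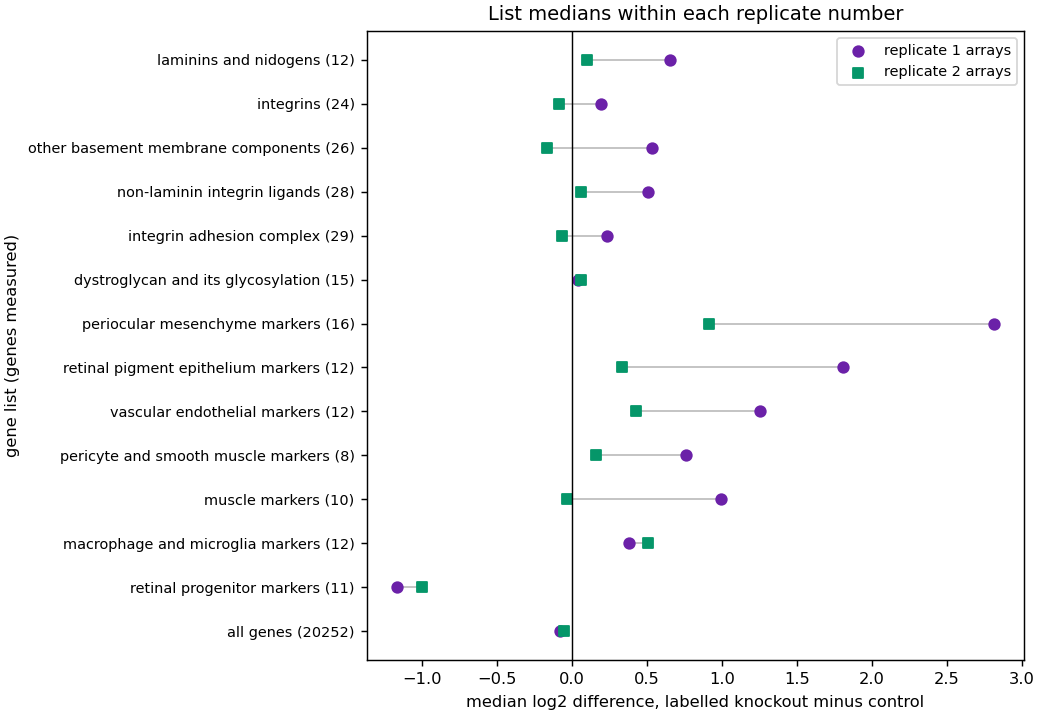
Median log2 difference, labelled knockout minus control (horizontal axis), of gene lists (vertical axis, with the number of genes measured) in pair 1 (replicate 1 arrays, purple circles) and pair 2 (replicate 2 arrays, green squares). Laminins and nidogens stand at 0.65 and 0.10, periocular mesenchyme markers at 2.82 and 0.91, retinal progenitor markers at -1.17 and -1.0 and all genes at -0.08 and -0.05. Not drawn are the lists of forebrain neuroepithelium (medians 2.72 and 4.17), ganglion cell, lens and surface ectoderm, and megakaryocyte and erythroid markers.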

How the data were processed

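Total RNA of 4 neuroretina samples was depleted of ribosomal RNA, labelled with biotin and hybridised to Affymetrix whole-transcript arrays, per the labels' protocols. The deposited values were log2 signals for 112205 transcript clusters. The submitters' processing notes name RMA, Partek and the build mm9, without versions or parameters; the array medians still differ. Scanner signals and cluster positions were not used here. A platform annotation named 25513 clusters with 1 symbol, 2290 with several (not used) and left 84402 unnamed. Each of 20252 genes took its brightest cluster by mean signal, and 5 members had several clusters. No gene was left out as dim; signals under an array's 75th percentile over all clusters are called not told from background.

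The genotype difference was fitted in R 4.3.3 by limma 3.58.1, with an eBayes prior following mean intensity and no other term, two-sided, with Benjamini-Hochberg adjustment over all genes at 0.05. "Rose" and "fell" refer to this test. On simulated data with array levels like these, this test on uncentred values made more false calls than its threshold allows. After gene median centring it did not. Simulated noise was independent for each array, whereas deviations of same-numbered arrays correlated at 0.48 across all genes here. The simulation therefore cannot show that the centred test keeps its threshold on these data. Precision is limited by having 4 arrays.

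Members and lists were chosen with earlier results of these data known, so list counts and medians are descriptions. Values on all arrays are given for members that passed and for Lama1, Lamc1, Itga6, Itgb1 and Itgav; other members with such values, Itgb8 among them, were chosen after their values were seen. From other lists, up to 4 passing genes of smallest p, or 2 where none passed, are named. Alternatives covered scaling, dim genes, the variance prior, the cluster rule, the threshold, the replicate number as a term and each array left out; gene median centring was added after seeing the data.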

Additional observations from a re-analysis of the deposited data

How the results depend on the processing

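Of 415 genes and 5 members called on deposited values, limma called 0 and 0 after quantile normalization (2263 genes and 10 members at an unadjusted p of 0.05), 0 and 0 after centring on the median of all clusters (1959 and 8), and 118 and 0 after centring on the median of genes (2316 and 10). With genes under the median level left out, 19 genes and 0 members of 20 were called (847 and 8 at an unadjusted p of 0.05) and the member median was 0.32, since the dim members near 0 were gone. Without the intensity trend 271 genes and 4 members (all but Lama4) passed. The robust prior, the mean over clusters and an adjusted p of 0.10 left 5 members called. With 1 array left out, 127 to 285 genes and 0 to 4 members passed, the member median ran from -0.18 to 0.38, and Itgb1 ran from -0.28 to 0.054. The median over all genes in these fits ran from -0.33 to 0.20, beside -0.06 with all 4 arrays. All differences in these fits, and so the ranges of the member median and of Itgb1, carry this shift, which was not taken out. Without labelled knockout replicate 1 the member median was 0.21, beside 0.20 over all genes. In the other fits it lay above that of all genes. Itga6 turned from -0.42 to 0.012 with the mean of its 2 clusters.

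The labels do not say what a replicate number marks. Deviations of same-numbered arrays from their group means correlated at 0.48 across all genes and 0.41 across members. With the replicate block on deposited values limma called 0 genes and 0 members (3513 and 15 at an unadjusted p of 0.05), and 0 and 0 with median centring over clusters as well (3266 and 13). With gene median centring and the replicate block it called 17 and 0 (4300 and 13). In the block on deposited values the smallest adjusted p of a member was that of Itgb8, 0.0976. In all of these fits the 5 genes stayed above 0. The block leaves each difference unchanged and centring shifts all genes alike, so the kept sign adds no support. Dim signals limit 17 members: 11 were under the 75th percentile on all 4 arrays, and 6 more, Lama2 among them, on both control arrays.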
